A study of Danio rerio with 116 samples.

Results

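The comparison described here is that of germline cells with other cells of the zebrafish embryo at 1 day post fertilisation (dpf), the earliest age of the series. Its members were chosen by the age and the kind of cell in the labels, which gave 6 of 116 libraries, 3 of EGFP +ve cells (A, B and C) and 3 of control cells (A, B and C). All fish carried the transgene vas:eGFP, in which the promoter of vasa, a germline gene, drives the fluorescent protein EGFP, and each library came from a pool of 10 fish of both sexes. EGFP +ve cells were sorted from dissociated embryos as germline cells, and control cells were the sorted EGFP-negative cells of whole embryos. Protein from this transgene is also laid down in the egg and inherited by the germline cells, so sorting at this age does not require that an embryo had begun to make its own. The study states that before 1 dpf EGFP from the oocyte is found in somatic tissues as well. The study viewed sorted cells by fluorescence microscopy and reports that nearly all of them were EGFP +ve. Methylation calls carry no expression markers, so the purity of the sorted cells was not tested here. The labels do not say whether the pools of one group came from separate clutches, so that the p-values measure the spread between these libraries only.

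Most CG dinucleotides of a vertebrate genome carry a methyl group on the cytosine, apart from stretches rich in CG such as active promoters, which are usually free of it. Primordial germ cells are set aside early in the zebrafish embryo by maternal germ plasm and reach the gonadal ridge at about the age studied here. In mice the same cells lose most of their CG methylation before they build the pattern of eggs or sperm, and the libraries of 1 dpf bear on whether a similar loss had taken place in zebrafish.

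The assay was low coverage whole genome bisulfite sequencing, in which unmethylated cytosines are read as thymine and methylated ones stay cytosine. The 6 libraries held 84168 CG calls on 24843 reads, out of 3648141 calls in the series. EGFP +ve libraries A, B and C held 12286, 11618 and 12899 calls, and control libraries A, B and C held 10388, 22572 and 14405. Between 96.8% and 97.7% of the calls of a library lay on chromosomes 1 to 25. Few positions were read in more than 1 library, and between 58 and 229 positions were shared by a pair of libraries. The data therefore measure levels over chromosomes, windows and kinds of reads, and not single sites or promoters. The control libraries and EGFP +ve library A were sequenced on 1 run of the instrument, while EGFP +ve libraries B and C came from separate runs with no control library of this age. For these libraries the run and the kind of cell cannot be told apart, so differences within the shared run, between EGFP +ve library A and the mean of the 3 control libraries, are given for global methylation, the classes of reads and windows and chromosome 4. The smallest exact permutation p of 1 library against 3 is 0.25.

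The pooled CG methylation of chromosomes 1 to 25 was 84.4%, 85.2% and 82.9% in EGFP +ve libraries A, B and C, against 81.0%, 81.1% and 82.0% in control libraries A, B and C. Every EGFP +ve library lay above every control library. The half-width of the 95% interval of a library, with reads as the units sampled, was between 1.13 and 1.61 percentage points. The interval of EGFP +ve library C therefore overlapped that of every control library, and that of EGFP +ve library A overlapped that of control library C. The mean over reads, in which a read with many calls weighs no more than a read with 1 call, was 87.1%, 87.1% and 84.8% in EGFP +ve libraries and 83.4%, 83.9% and 83.6% in control libraries, and the groups did not overlap here either. The mean over windows of 10 Mb exceeded that of control cells by 3.17 percentage points, with an exact two-sided permutation p of 0.1, and by 3.69 percentage points within the shared run. A p of 0.1 is the smallest p that 3 libraries against 3 can give, so that none of the comparisons of single values below could pass a threshold of 0.05.

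**Figure D1:**
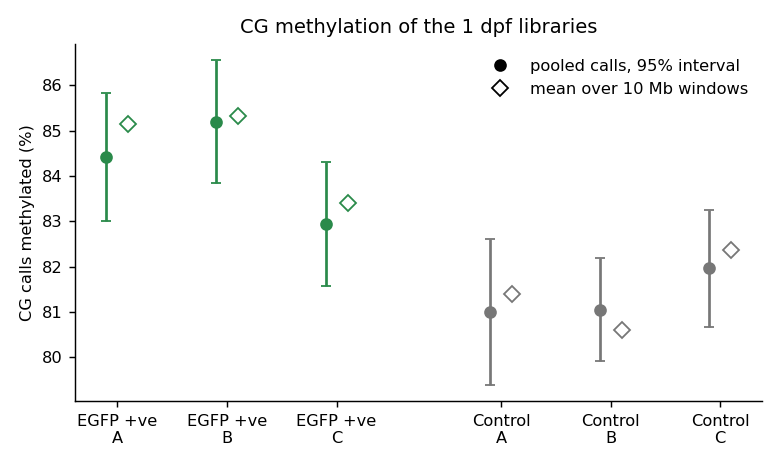
CG methylation in per cent for the 3 EGFP +ve libraries (left, green) and the 3 control libraries (right, grey) at 1 dpf. Filled circles are pooled calls of chromosomes 1 to 25 with 95% intervals that take reads as the units sampled, and open diamonds are means over windows of 10 Mb. All green symbols lie above all grey symbols of their kind. The interval of EGFP +ve library C overlaps those of all control libraries, and that of EGFP +ve library A overlaps that of control library C.

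Reads were classed by their number of CG calls, which follows the density of CG in the stretch that was read. Methylation was lower on dense reads in both kinds of cell, and the excess of EGFP +ve cells was largest there. Reads with 8 or more calls were 72.8%, 76.2% and 74.5% methylated in EGFP +ve libraries A, B and C, against 70.0%, 70.0% and 70.2% in control libraries A, B and C. The difference was 4.44 percentage points, and the groups did not overlap. The SD of the 3 control libraries was 0.136. This class held 221 to 496 reads in a library, and its counting error was not computed. An SD of 3 values does not replace that error, so the difference may be less sure than the SD makes it look. Reads with 2 to 3 calls averaged 87.8% ± 0.231 in EGFP +ve libraries and 86.1% ± 0.465 in control libraries (SD, n = 3 each), also without overlap. Reads with 4 to 7 calls averaged 85.9% ± 1.29 in EGFP +ve libraries and 83.6% ± 1.06 in control libraries (SD, n = 3 each), and these groups overlapped. Reads with 1 call averaged 87.1% ± 2.93 in EGFP +ve libraries and 83.6% ± 1.85 in control libraries (SD, n = 3 each), again with overlap. The exact permutation p-values of the 4 classes lay between 0.1 and 0.3, and between 0.2 and 0.3 after Benjamini-Hochberg adjustment over the 4. Within the shared sequencing run EGFP +ve library A exceeded the mean of the control libraries by 2.72 percentage points on reads with 8 or more calls, by 2.81 with 4 to 7, by 1.89 with 2 to 3 and by 5.08 with 1 call. The excess on the densest reads was thus smaller within the run than over all libraries, and it was not the largest of the 4 classes there.

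A read covers neighbouring CG positions of 1 DNA molecule, and its own share of methylated calls shows whether methylation is missing from a whole stretch or from scattered positions. Among reads with 2 or more calls, 71.0%, 72.5% and 68.4% were wholly methylated in EGFP +ve libraries A, B and C, against 65.4%, 66.2% and 66.4% in control libraries A, B and C. Every EGFP +ve library lay above the control libraries, with a difference of 4.67 percentage points. Reads that were at least 50% but not wholly methylated made up 21.6%, 19.7% and 23.2% in EGFP +ve libraries A, B and C and 25.1%, 23.9% and 24.8% in control libraries A, B and C. Wholly unmethylated reads made up 6.30%, 6.34% and 6.23% in EGFP +ve libraries A, B and C and 7.79%, 7.64% and 6.78% in control libraries A, B and C. In both of these kinds of read every EGFP +ve library lay below every control library. Reads that were methylated at some positions but at fewer than 50% were rare, at 1.58% ± 0.531 in EGFP +ve libraries and 2.00% ± 0.261 in control libraries (SD, n = 3 each), and overlapped. Each of the 3 kinds that did not overlap had an exact permutation p of 0.1, or 0.133 after Benjamini-Hochberg adjustment over the 4 kinds. Within the shared run the differences were 5.05 percentage points for wholly methylated reads, -3.05 for reads of at least 50%, -0.90 for those under 50% and -1.10 for wholly unmethylated reads.

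**Figure D2:**
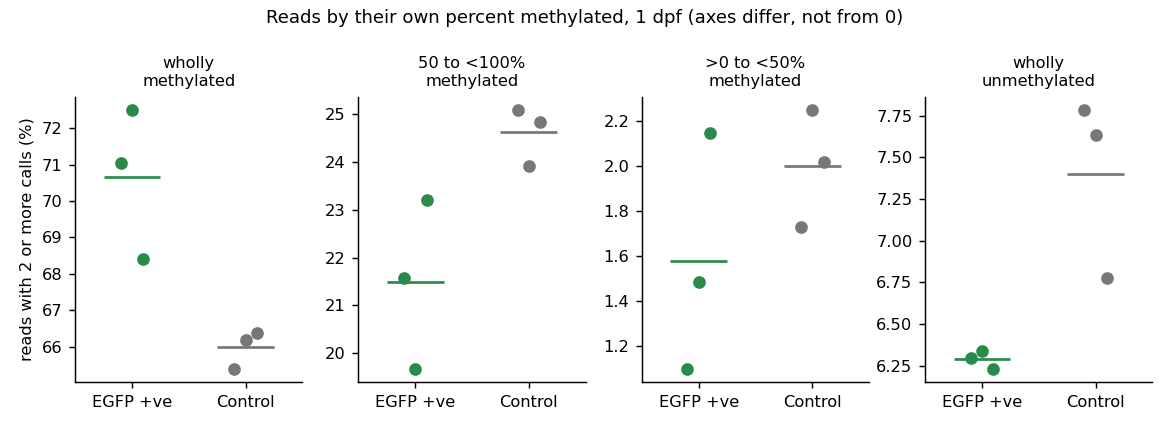
Share of reads with 2 or more CG calls, in per cent, by the methylation of the read itself, from wholly methylated (left panel) to wholly unmethylated (right panel). Points are libraries, lines are means of 3, EGFP +ve libraries stand left of control libraries in each panel, and the vertical axes differ and do not start at 0. The groups do not overlap except for reads above 0 and under 50% methylated.

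The kinds of read in which the groups did not overlap were not the same in each class of reads. On reads with 8 or more calls, 17.5%, 16.7% and 14.8% were wholly unmethylated in EGFP +ve libraries A, B and C, against 20.5%, 21.0% and 21.2% in control libraries A, B and C. The groups did not overlap, and the difference was -4.58 percentage points, or -3.44 within the shared run. Over all libraries the exact permutation p was 0.1, or 0.4 after Benjamini-Hochberg adjustment over the 4 kinds of read. The share of wholly methylated reads among these dense reads overlapped between the groups, at 47.2% ± 0.914 in EGFP +ve libraries and 43.1% ± 3.39 in control libraries (SD, n = 3 each). On reads with 2 to 3 calls it was the wholly methylated share and the share of at least 50% but not wholly methylated reads that did not overlap. Wholly unmethylated reads averaged 4.54% ± 0.517 in EGFP +ve libraries and 4.98% ± 0.348 in control libraries (SD, n = 3 each) and overlapped. Wholly methylated reads averaged 78.2% ± 1.23 in EGFP +ve libraries and 74.6% ± 0.253 in control libraries, and reads of at least 50% but not wholly methylated 15.9% ± 1.51 in EGFP +ve libraries and 18.8% ± 0.705 in control libraries (SD, n = 3 each). Reads with 4 to 7 calls were wholly methylated in 65.4%, 69.2% and 62.7% of cases in EGFP +ve libraries A, B and C and in 60.6%, 61.0% and 61.0% in control libraries A, B and C, without overlap, while their wholly unmethylated shares overlapped. The wholly methylated difference of 4.88 percentage points was 3.17 without EGFP +ve library B. Both partly methylated kinds were also without overlap among these reads. Reads of at least 50% made up 23.2% to 28.3% in EGFP +ve libraries and 28.8% to 31.0% in control libraries, a difference of -3.12 that was -1.47 without EGFP +ve library B. Reads under 50% made up 0.482% to 2.02% in EGFP +ve libraries and 2.04% to 2.86% in control libraries, a difference of -1.04 that was -0.59 without EGFP +ve library A. The nearest libraries held 21 such reads of 1041 (EGFP +ve library C) and 25 of 1224 (control library C). Very few reads could thus close this gap. After the same adjustment the smallest exact permutation p was 0.2 for reads with 2 to 3 calls and 0.133 for reads with 4 to 7. Whether the classes of reads differed from each other in their contrast was not tested.

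Counted over all calls of chromosomes 1 to 25, unmethylated calls were split between wholly unmethylated reads and mixed reads. Wholly unmethylated reads, those with a single call included, held 8.89, 8.41 and 8.84 unmethylated calls per 100 calls in EGFP +ve libraries A, B and C, against 10.9, 10.8 and 9.85 in control libraries A, B and C. The difference of -1.81 calls per 100 came without overlap (exact permutation p = 0.1, 0.2 after Benjamini-Hochberg adjustment over the 2 kinds). Mixed reads held 6.69, 6.39 and 8.22 per 100 calls in EGFP +ve libraries A, B and C and 8.09, 8.13 and 8.18 in control libraries A, B and C. Library C of the EGFP +ve cells had the highest value of the 6, so that the groups overlapped (exact permutation p = 0.4). The difference of -1.04 per 100 was -1.60 without EGFP +ve library C and -0.68 without EGFP +ve library B. Within the shared run EGFP +ve library A differed from the mean of the control libraries by -1.64 calls per 100 in wholly unmethylated reads and by -1.44 in mixed reads. In the parts of this split, the wholly unmethylated reads with 2 or more calls contributed -1.55 calls per 100 and mixed reads of at least 50% methylation -0.86, both without overlap, and the other parts overlapped.

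Neighbouring calls of a read mostly had the same state in both kinds of cell. Adjacent calls up to 10 bp apart differed in 10.3%, 9.67% and 9.95% of pairs in EGFP +ve libraries A, B and C, and in 10.3%, 10.4% and 11.1% of pairs in control libraries A, B and C. If the states of such calls were independent, 29.0% to 32.7% of pairs would have differed in EGFP +ve libraries and 33.3% to 35.9% in control libraries. More than 30 bp apart, adjacent calls differed in 13.4%, 12.0% and 16.5% of pairs in EGFP +ve libraries A, B and C, and in 16.5%, 16.8% and 17.2% in control libraries A, B and C. EGFP +ve library C was close to the control libraries at this distance.

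The excess of EGFP +ve cells was spread over many chromosomes and no chromosome stood out in the models. The mean of EGFP +ve libraries was above that of control libraries on 21 of 25 chromosomes, and the median difference was 3.33 percentage points. In a quasi-binomial model of the calls with dispersions moderated by limma over the chromosomes, 0 of 25 chromosomes reached an adjusted p under 0.05 in either direction (0% called). At an unadjusted p under 0.05 the model had 4 chromosomes above and 0 below, and limma on log2 ratios of methylated to unmethylated calls had 3 above and 0 below. Chromosomes on which the groups did not overlap numbered 3 with EGFP +ve cells above (12% of the 25) and 0 with EGFP +ve cells below (0%). A chromosome held between 205 and 1214 calls in a library, and this depth leaves wide errors for single chromosomes.

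The 3 chromosomes with the largest differences were 23, 16 and 19. Chromosome 23 was 83.3%, 88.3% and 89.5% methylated in EGFP +ve libraries A, B and C, against 85.4%, 75.4% and 77.3% in control libraries A, B and C. Its difference of 7.66 percentage points had an adjusted p of 0.080 in the limma-moderated model. Limma on log2 ratios gave an adjusted p of 0.094, and limma on percentages 0.128. The moderated model used the same dispersion of 4.01 for all chromosomes, with 100 degrees of freedom pooled over chromosomes of the same 6 libraries. Chromosome 23 alone had a dispersion of 5.29. The call in the moderated model depended on single libraries, since its adjusted p was 0.047 without EGFP +ve library A and 0.048 without control library A. Chromosome 16 differed by 7.14 percentage points and chromosome 19 by 6.21, with an adjusted p of 0.15 for both in the limma-moderated model, and on both the groups overlapped. Control library A was the highest control library on chromosome 23 and the lowest on chromosomes 16 and 19.

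At the other end, chromosomes 17, 4 and 24 had the smallest differences, all with EGFP +ve cells below control cells. Chromosome 17 was 77.0%, 84.3% and 76.8% methylated in EGFP +ve libraries A, B and C and 81.1%, 84.1% and 80.8% in control libraries A, B and C, a difference of -2.59 percentage points. Chromosome 4 differed by -1.52 percentage points and chromosome 24 by -1.26. All 3 overlapped between the groups and had adjusted p-values between 0.51 and 0.91 in the limma-moderated model. When each chromosome was set against all other chromosomes of the same library, the same model called 0 of 25 (0%), and 1 chromosome above and 1 below at an unadjusted p under 0.05. Those were chromosome 23 and chromosome 17, both with an adjusted p of 0.48 in the limma-moderated model. On percentages minus the mean of the library, limma had 0 above and 1 below at an unadjusted p under 0.05.

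**Figure D3:**
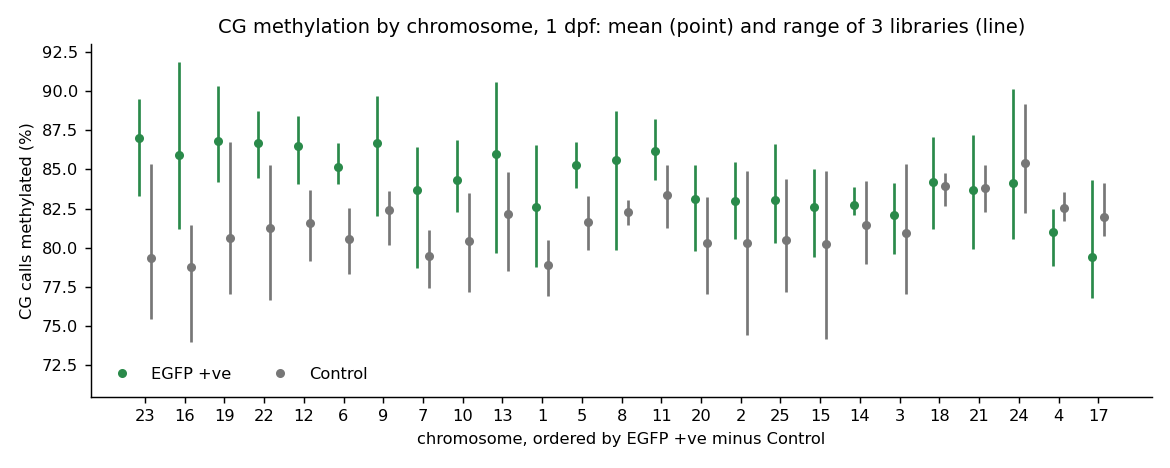
CG methylation in per cent for each of the 25 chromosomes at 1 dpf, ordered from the largest to the smallest EGFP +ve minus control difference. Points are means and lines the range of 3 libraries, with EGFP +ve cells (green) left of control cells (grey). The green mean is above the grey mean on 21 chromosomes, and the ranges are apart on 3.

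Libraries of the same line at 2 and 4 dpf had no part in choosing these chromosomes. At 2 dpf the difference was above 0 on all 6 of them and at 4 dpf on 5 of 6, against 3 of 6 at 1 dpf by the way they were chosen. The background was as high, since the difference was above 0 on all 25 chromosomes at 2 dpf (100%) and on 24 of 25 at 4 dpf (96%). At 2 dpf the groups did not overlap on 5 of the 6, chromosome 4 being the exception, against 21 of 25 chromosomes in all (84%). At 4 dpf they did not overlap on chromosomes 19 and 4, which is 2 of the 6, against 14 of 25 in all (56%). Chromosome 17 differed by 4.75 percentage points at 2 dpf and 3.79 at 4 dpf, and chromosome 24 by 3.61 and 2.70 at the same ages, so that the sign seen at 1 dpf was not seen again on either. Chromosome 23 differed by 6.31 percentage points at 2 dpf and by -1.09 at 4 dpf.

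Single windows of 10 Mb were not called either. Of 146 windows, 137 held at least 20 calls in each library, and 94 of these had a mean of EGFP +ve libraries above that of control libraries, with a median difference of 2.33 percentage points. The limma-moderated quasi-binomial model called 0 of 137 windows in either direction (0%), with 11 windows above and 1 below at an unadjusted p under 0.05, and limma on log2 ratios had 8 above and 1 below. The groups did not overlap in 14 windows with EGFP +ve cells above (10.2%) and in 1 with EGFP +ve cells below (0.73%). Such a window holds many genes, which the calls are too few to tell apart.

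The window with the largest difference starts at position 40000001 of chromosome 23 (GRCz10) and differed by 22.8 percentage points. It was 78.6%, 92.1% and 93.8% methylated in EGFP +ve libraries A, B and C, against 76.9%, 62.9% and 56.3% in control libraries A, B and C, from 52 to 128 calls in a library. The window that starts at position 10000001 of chromosome 5 was 92.7%, 94.7% and 87.1% methylated in EGFP +ve libraries A, B and C and 55.7%, 76.8% and 83.9% in control libraries A, B and C. Neither window overlapped between the groups at 1 dpf, which the choice of the largest differences favours. In the libraries of 2 and 4 dpf, which did not enter that choice, the window of chromosome 23 differed by 7.21 and 9.40 percentage points. Its groups overlapped at 4 dpf. The window of chromosome 5 differed by 8.03 and 8.91 percentage points, without overlap at either age. The background was a difference of 5.09 and 5.40 percentage points in the mean over all windows at these ages. The share of all windows without overlap at these ages was not counted. Among chromosomes, 84% at 2 dpf and 56% at 4 dpf were without overlap with EGFP +ve cells above, and 0% with EGFP +ve cells below. A lack of overlap in a single window above control cells may therefore be common at these ages. In the opposite direction, the window that starts at position 30000001 of chromosome 17 differed by -11.4 percentage points at 1 dpf with overlap, by -2.47 at 2 dpf and by -1.16 at 4 dpf. The other is the window of chromosome 4 that starts at position 70000001, which differed by -19.4 percentage points with overlap and holds rDNA. It differed by -10.2 percentage points at 2 dpf without overlap and by 7.68 at 4 dpf with overlap.

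Chromosome 4 of zebrafish has a long arm rich in repeats and poor in protein-coding genes, which carries sex-linked sequence in some strains. The arm was taken here as all positions beyond 27 Mb. It was 78.1%, 86.1% and 79.2% methylated in EGFP +ve libraries A, B and C, against 90.8%, 86.5% and 85.9% in control libraries A, B and C. The mean of EGFP +ve libraries was thus below that of control libraries by 6.59 percentage points, opposite in sign to the genome, although the groups overlapped (exact permutation p = 0.2). Within the shared run the arm differed by -9.68 percentage points. Before 27 Mb the same chromosome was 80.4%, 77.0% and 87.6% methylated in EGFP +ve libraries A, B and C and 67.7%, 76.6% and 80.2% in control libraries A, B and C, a difference of 6.83 percentage points with overlap (exact permutation p = 0.2). This value was 3.29 without control library A, 3.87 without EGFP +ve library C and 5.58 within the shared run. The long arm minus the rest of the chromosome differed by -13.4 percentage points between the kinds of cell (exact permutation p = 0.2, and 0.2 after Benjamini-Hochberg adjustment over the 3 comparisons of chromosome 4). It was -8.33 percentage points without control library A and -15.3 within the shared run.

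The level of the long arm moved with a few reads in 1 region. The region at chr4:76314296-76334295 on GRCz10 is the stretch of 20 kb with most calls in EGFP +ve libraries of 28 dpf, the age at which the study describes germline amplification of 45S ribosomal DNA, the genes for ribosomal RNA, on this chromosome. That it holds rDNA was taken from the study and was not checked against an annotation. EGFP +ve libraries A, B and C had 4, 2 and 4 reads there and control libraries A, B and C had 2, 3 and 4. The largest share of reads in the region was 0.107% in EGFP +ve libraries and 0.0916% in control libraries. These reads were dense in CG. Methylated calls in the region numbered 23 of 61, 0 of 15 and 26 of 67 in EGFP +ve libraries A, B and C, and 22 of 25, 20 of 38 and 28 of 50 in control libraries A, B and C. As percentages these are 37.7%, 0% and 38.8% in EGFP +ve libraries and 88.0%, 52.6% and 56.0% in control libraries, so that every EGFP +ve library lay below every control library. Single reads of EGFP +ve library C ranged from 8.33% to 81.8% methylated. Without the region the long arm was 85.3%, 91.3% and 86.9% methylated in EGFP +ve libraries A, B and C and 91.1%, 88.4% and 89.9% in control libraries A, B and C, and the difference was -1.97 percentage points (exact permutation p = 0.4). The long arm minus the rest of the chromosome differed by -8.80 percentage points without it (exact permutation p = 0.3). The window that starts at position 70000001 differed by -12.0 percentage points at 1 dpf without the region, by -0.080 at 2 dpf and by 5.56 at 4 dpf. The levels at 1 dpf were then 62.7%, 96.0% and 70.8% in EGFP +ve libraries A, B and C and 92.5%, 87.7% and 85.3% in control libraries A, B and C.

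In the region, a group order like that of 1 dpf was seen again at 2 dpf. The libraries of that age had 15, 3 and 5 reads in EGFP +ve cells and 10, 12 and 12 in control cells. Methylation was 45.0%, 32.6% and 53.6% in EGFP +ve libraries A, B and C of 2 dpf and 61.7%, 69.0% and 79.3% in control libraries A, B and C of 2 dpf, again without overlap. At 4 dpf it was 52.4%, 61.4% and 88.0% in EGFP +ve libraries and 48.8% to 72.2% in control libraries, and the groups overlapped. These rest on 1, 5 and 2 reads in EGFP +ve libraries A, B and C and on 21, 3 and 10 in control libraries A, B and C. No test was made of the region. The long arm without the region differed by 3.22 percentage points at 2 dpf and 4.06 at 4 dpf, with the sign of the rest of the genome at both ages.

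**Figure D4:**
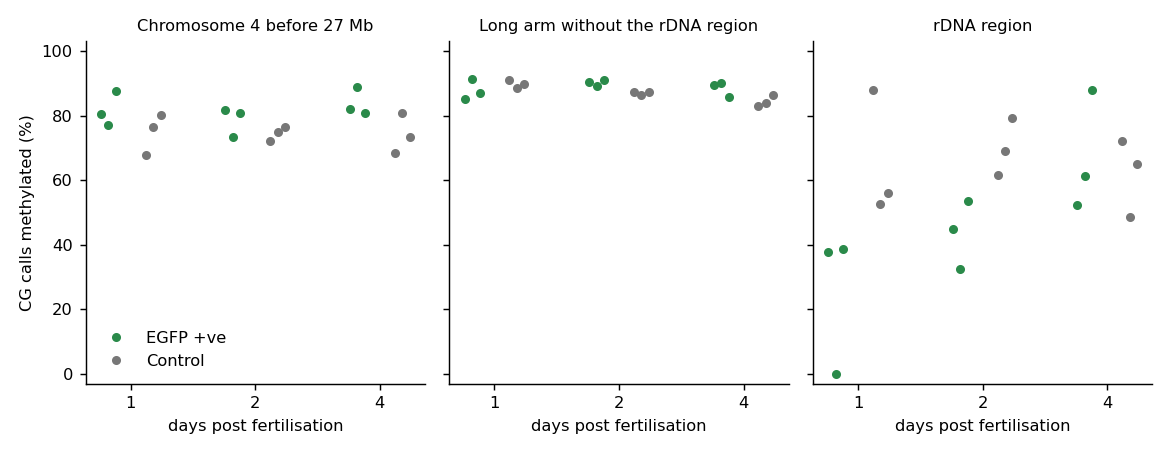
CG methylation in per cent of 3 parts of chromosome 4 at 1, 2 and 4 dpf, with 1 point for each library and EGFP +ve cells (green) left of control cells (grey) at each age. The rDNA region rests on 2 to 4 reads in a library at 1 dpf and on 1 to 21 at 4 dpf. All its green points lie below all grey points at 1 and 2 dpf and overlap them at 4 dpf. The long arm without the region lies between 83.0% and 91.3% in all libraries shown.

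Sequences outside the chromosomes did not separate the groups. Reads on scaffolds, which are pieces of the assembly not placed on a chromosome, were 94.0%, 76.9% and 87.8% methylated in EGFP +ve libraries A, B and C and 83.2%, 83.6% and 86.0% in control libraries A, B and C. EGFP +ve libraries held both the highest and the lowest value, and without EGFP +ve library A the difference of 2.02 percentage points became -1.86, and without EGFP +ve library B it was 6.68. Scaffold reads were 2.22% ± 0.0822 of reads in EGFP +ve libraries and 2.17% ± 0.259 in control libraries (SD, n = 3 each), and exact permutation p-values were 0.7 for their methylation and 0.8 for their share. Mitochondrial reads, from the small genome of the organelle, numbered 5, 21 and 3 in EGFP +ve libraries A, B and C and 6, 6 and 1 in control libraries A, B and C. EGFP +ve library B had the largest share, with 0.604% of its reads (95% Wilson interval 0.396% to 0.922%). Control library A came next with 0.201% (95% Wilson interval 0.0922% to 0.438%), so that these intervals overlapped. Of the mitochondrial calls, 27.8%, 22.2% and 46.2% were read as methylated in EGFP +ve libraries A, B and C and 23.8%, 0% and 0% in control libraries A, B and C. They came from 13 to 81 calls in EGFP +ve libraries and 2 to 21 in control libraries. Within the shared run the difference was 19.8 percentage points. Unmethylated cytosines that bisulfite failed to convert are also read as methylated. The study took methylation outside CG as its measure of failed conversion, and reports that nearly all unmethylated cytosines were converted in every library. Whether conversion differed between the groups, and so entered the differences above, was not tested here. The groups overlapped in share and in methylation (exact permutation p = 0.5 for the log2 share and 0.2 for the methylation, or 0.5 and 0.4 after Benjamini-Hochberg adjustment). Intervals here cover counting error only, since the reads carry no molecular identifiers.

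Control cells of 2 to 70 dpf were used to class the genome by its later level in other cells. Windows of 10 kb with at least 10 calls in these later libraries, 75522 in all, were put in 4 classes by their percentage of methylated calls. In windows with 50% to under 75%, calls of 1 dpf were 84.2%, 82.3% and 83.1% methylated in EGFP +ve libraries A, B and C, against 77.0%, 78.3% and 76.8% in control libraries A, B and C, a difference of 5.86 percentage points without overlap. In windows with 90% or more the levels were nearly the same, at 89.9% ± 0.268 in EGFP +ve libraries and 89.5% ± 0.319 in control libraries (SD, n = 3 each). Windows with 75% to under 90% differed by 2.19 percentage points and those under 50% by 4.49, with overlap in both. Without EGFP +ve library B these values were 1.43 and 2.38. Within the shared run the differences were 0.75 percentage points under 50%, 6.86 with 50% to under 75%, 2.35 with 75% to under 90% and 0.64 with 90% or more. The exact permutation p-values of the 4 classes were 0.1 or 0.2, and all were 0.2 after Benjamini-Hochberg adjustment. The difference between the class with 50% to under 75% and the class with 90% or more was -6.63 ± 0.878 percentage points in EGFP +ve libraries and -12.1 ± 0.958 in control libraries (SD, n = 3 each; exact permutation p = 0.1). Both classes were chosen by control cells, however. In the class with 50% to under 75% this favours windows that are low in control cells. In the class with 90% or more it favours windows that are high in them. With classes made from EGFP +ve cells of 2 to 70 dpf instead, the differences were 5.96 percentage points in windows under 50%, 5.14 with 50% to under 75%, 0.98 with 75% to under 90% and 2.80 with 90% or more. Only the class with 75% to under 90% then overlapped between the groups. Windows with 90% or more were 91.6% ± 1.29 methylated in EGFP +ve libraries and 88.8% ± 0.498 in control libraries (SD, n = 3 each). Their near equality was thus seen only with classes from control cells. The class with 50% to under 75% minus that with 90% or more was then -10.4 ± 1.95 percentage points in EGFP +ve libraries and -12.7 ± 3.02 in control libraries (SD, n = 3 each; exact permutation p = 0.3), with overlap. With classes from control cells, the difference in windows with 90% or more was 1.31 percentage points when windows needed 20 calls and 1.39 in windows of 50 kb.

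**Figure D5:**
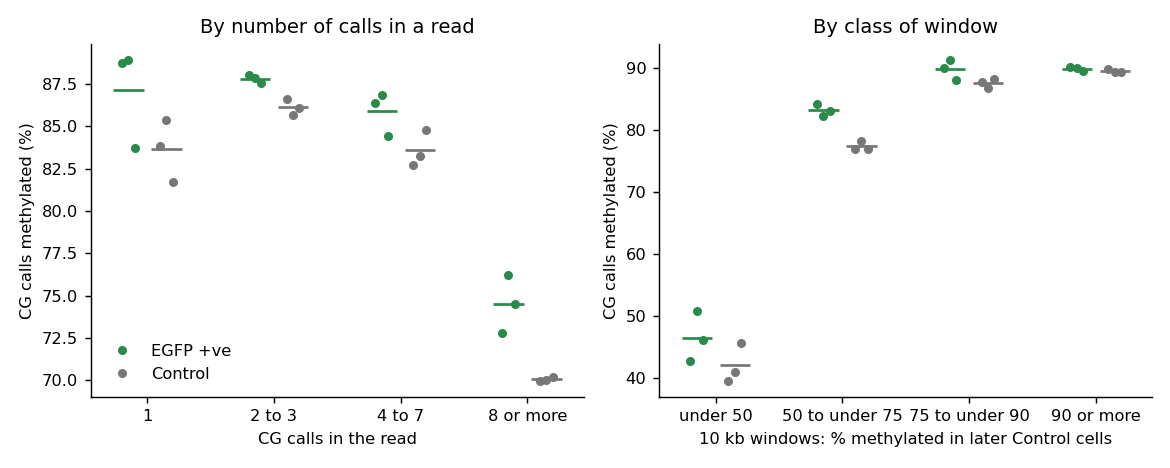
CG methylation in per cent at 1 dpf by the number of calls in a read (left) and by the class of 10 kb window (right), with windows classed by their methylation in control cells of 2 to 70 dpf. Points are libraries, lines are means of 3, and EGFP +ve cells (green) stand left of control cells (grey). The groups are apart for reads with 2 to 3 and with 8 or more calls and for windows with 50% to under 75%. They are nearly equal in windows with 90% or more, as classed here by control cells.

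Inside the windows with 50% to under 75%, reads with 2 or more calls were wholly unmethylated in 5.56%, 8.49% and 5.90% of cases in EGFP +ve libraries A, B and C and in 11.4%, 8.74% and 10.9% in control libraries A, B and C. Mixed reads made up 24.3% in EGFP +ve libraries and 28.0% in control libraries on average, and neither kind of read overlapped between the groups. In windows with 90% or more, wholly unmethylated reads averaged 2.38% in EGFP +ve libraries and 2.04% in control libraries with overlap, while mixed reads averaged 24.2% in EGFP +ve libraries and 27.3% in control libraries without overlap. The share of mixed reads was below that of control libraries in every EGFP +ve library in all classes but that under 50%.

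The difference between the kinds of cell at 1 dpf was set against that at 2 and 4 dpf. The mean over windows of 10 Mb differed by 3.17 percentage points at 1 dpf, by 5.09 at 2 dpf and by 5.40 at 4 dpf. The comparison of the ages had exact permutation p-values of 0.51 against 2 dpf and 0.515 against 4 dpf over 400 arrangements. Both were 0.515 after Benjamini-Hochberg adjustment. Labels of the kind of cell were permuted within each age. Since the ages differed in the same direction, arrangements that swap all labels of 1 age give large values. The test therefore cannot decide whether the difference changed with age, here or for the kinds of read below. EGFP +ve cells averaged 84.6%, 83.9% and 81.2% at 1, 2 and 4 dpf, and control cells 81.5%, 78.9% and 75.8% at the same ages. The step from 1 to 2 dpf was -0.69 percentage points with overlap in EGFP +ve libraries (exact permutation p = 0.4) and -2.60 without overlap in control libraries (exact permutation p = 0.1). At 4 dpf EGFP +ve libraries differed from those of 1 dpf by -3.45 percentage points and control libraries by -5.67, both without overlap (exact permutation p = 0.1 each). On pooled calls the same step was -2.96 percentage points in EGFP +ve libraries, with overlap (exact permutation p = 0.2). In control libraries it was -5.35 on pooled calls, without overlap (exact permutation p = 0.1). The difference in unmethylated calls of mixed reads was -1.04 per 100 calls at 1 dpf, -3.45 at 2 dpf and -2.74 at 4 dpf. The values behind the difference at 2 dpf were 6.63 ± 0.246 in EGFP +ve libraries and 10.1 ± 0.157 in control libraries (SD, n = 3 each). The comparison of 1 dpf with 2 dpf had an exact permutation p of 0.125 and that with 4 dpf one of 0.325, or 0.25 and 0.325 after Benjamini-Hochberg adjustment over both. The difference in wholly unmethylated reads was -1.81 per 100 at 1 dpf, -1.63 at 2 dpf and -2.50 at 4 dpf (exact permutation p = 0.9 against 2 dpf and 0.725 against 4 dpf). The libraries of 2 dpf were all sequenced on a run of their own, so that a change from 1 to 2 dpf and a change of run cannot be told apart.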

How the data were processed

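The 6 libraries of 1 dpf were analysed, and those of later ages only for comparison. The authors trimmed reads with Trim Galore, used the pbat option of Bismark 0.19.0 for mapping, and deposited 1 line per CG call and library, without normalization or pooling (other unit: a call is methylated or not). The submitters' processing notes name GRCz10 and the paper GRCz11, and the highest positions fit GRCz10. All percentages were computed here from the deposited calls with Python 3.11.15, numpy 2.4.6 and pandas 2.3.3. Single values were compared by exact two-sided permutation of 3 against 3 libraries. Chromosomes and windows of 10 Mb with at least 20 calls in each library were fitted by quasi-binomial models in R 4.3.3 with limma 3.58.1. The model of chromosomes was run on simulated data with shifts larger than any chromosome showed here. That check does not show whether differences of the size seen here could be called. Read names gave the sequencing runs. Features were named by rule: chromosome 4 and its arms, the 3 chromosomes with the largest and smallest differences, the 2 windows of 10 Mb with the largest difference in each direction, scaffolds, mitochondrial calls, the rDNA region and every class of reads. The members, classes and tests were chosen with earlier results of these data known. Tests of named chromosomes at later ages, the rDNA region left out, 1 scaffold left out, windows classed by EGFP +ve cells and some values within the shared run were added after seeing the data.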

Additional observations from a re-analysis of the deposited data

How the results depend on the processing

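Of 374 alternative values for 43 results, 366 were counted as unchanged. For differences between the groups this means the same sign only, since no comparison of 3 libraries against 3 could pass the threshold. For the models it means the same count of chromosomes or windows called. Only windows called higher entered that count, so a window called lower did not change it. Leaving out each library in turn, the share of reads above 0 and under 50% methylated among those with 2 to 3 calls differed by -0.497 to 0.0206 percentage points, that of reads from 50% to under 100% with 8 or more calls by -2.59 to 0.575, the methylation of scaffolds by -1.86 to 6.68, and the scaffold share of reads by -0.0608 to 0.193. As a share of calls instead of reads, scaffolds differed by -0.0108 percentage points. The count of chromosomes called higher in EGFP +ve cells was between 0 and 1 over the same omissions, and the 1 was chromosome 23 without EGFP +ve library A or without control library A. The count of windows called higher stayed at 0, and 1 window, that of chromosome 4 with rDNA, was called lower without EGFP +ve library B (limma-moderated adjusted p = 0.031). The cause was not tested.

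With the letter as a replicate block, an exact paired permutation over 3 pairs can give no p below 0.25, which is the value for global methylation at a difference of 3.17 percentage points, and the models with the block called 0 chromosomes and 0 windows. Libraries of the same letter did not deviate together over the 25 chromosomes (correlations of -0.33, -0.11 and 0.062 for A, B and C), so the letters were not taken as pairs. Depth limits the smallest features, with 20 to 260 calls of a 10 Mb window, 15 to 67 of the rDNA region and 2 to 81 mitochondrial calls in a library.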
